A study of Mus musculus with 2 samples.

Results

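Cxcr4, Ackr3 and Cxcl12 are 3 of the 27998 genes counted in 2 single-cell RNA libraries of mouse brain bearing the G422 glioma. They were chosen by name, with earlier results of these libraries known, so their differences between the libraries are given as descriptions. Cxcl12 encodes a chemokine that is held on vessel walls and connective tissue. Cxcr4 encodes its G protein-coupled receptor, which draws leukocytes towards the chemokine and keeps immature ones in the bone marrow. Ackr3 (also called Cxcr7) encodes an atypical receptor that binds and internalizes the same chemokine without classical G protein signalling, and so lowers its free level. In brain the chemokine is known from vessels and meninges, and both receptors are known from gliomas. On mm10, Ackr3 (ENSMUSG00000044337) lies on chromosome 1 from 90203980 to 90216751 on the plus strand. Cxcr4 (ENSMUSG00000045382) lies on chromosome 1 from 128588199 to 128592293 on the minus strand. Cxcl12 (ENSMUSG00000061353) lies on chromosome 6 from 117168535 to 117181367 on the plus strand. All 3 are annotated as protein-coding, and the counts are per gene, so no value is tied to an exon or a transcript.

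G422 is a mouse glioma line, grafted here into the brains of Kunming mice. Untreated mice gave the control library, with tissue taken on day 7 of tumour growth. Long-term survivors (LTS) gave the other. They had lived over 100 days after a combined therapy, were inoculated again on the opposite side, and are labelled as having lived over 100 days once more. Their tissue was also taken on day 7 of an inoculation. The agents of the therapy, the number of mice pooled and the sex of the mice are not given in the sources used here, and each group is 1 library. There is therefore no replicate spread and no test of the conditions: each interval below is a 95% interval for counting error alone. Cells were collected from the interphase between 70% and 37% Percoll, a density step that enriches immune cells, so shares of cell types describe what passed it.

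The control library held 165796852 unique molecular identifiers (UMIs, each counting 1 captured RNA molecule) and the LTS library 149413534. After the filters, 8310 control cells and 4835 LTS cells remained, with medians of 14889.5 and 18779 UMIs, and 13 barcodes were called as cells in both. Clusters were named from marker lists and are called "-like". The tumour-like cells numbered 5220 in the control and 2575 in LTS, the monocyte-like 418 and 226, the microglia-like 761 and 630, the T cell-like 96 and 479, the B cell-like 24 and 74, and the endothelial cell-like 144 and 74. The G422 label was given by a rule that asked for at least 3 tumour markers and low Y-linked and Ptprc levels. The values that follow were thus set by the rule and are no separate check of it. In tumour-like cells, Y-linked genes stood at 0.975 and 0.898 counts per 1000000 UMIs (CPM), and the leukocyte gene Ptprc at 2.27 and 1.95 CPM. The 13 tumour markers, named by an earlier analysis of these data, summed there to 2863 and 2373 CPM. In endothelial cell-like cells they summed to 2047 and 2027 CPM. The T cell-like cells also carried UMIs of 7 of 8 natural killer cell markers. No cluster passed as mural cells or fibroblasts.

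RNA outside cells was the measured background. In barcodes with 1 to 100 UMIs, Cxcr4 stood at 5.28 CPM in the control and 8.43 in LTS, Ackr3 at 13.9 and 20.8, and Cxcl12 at 0.960 and 2.66. The 13 tumour markers were higher in the control's immune cells. They summed to 923 CPM in control monocyte-like cells and 250 in LTS ones, and to 1618 and 472 CPM in T cell-like cells. Read as free RNA, they gave an estimated 32.3% of the UMIs of control monocyte-like cells and 11.4% of LTS ones. Free RNA and mixed cells were not told apart by these markers. Of the monocyte-like cells, 43 in the control and 4 in LTS carried as many tumour markers as monocyte markers or more. The estimate is rough: by microglia markers it gave 25.1% for control tumour-like cells, where Cxcr4 stood at only 0.163 CPM.

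**Figure D1:**
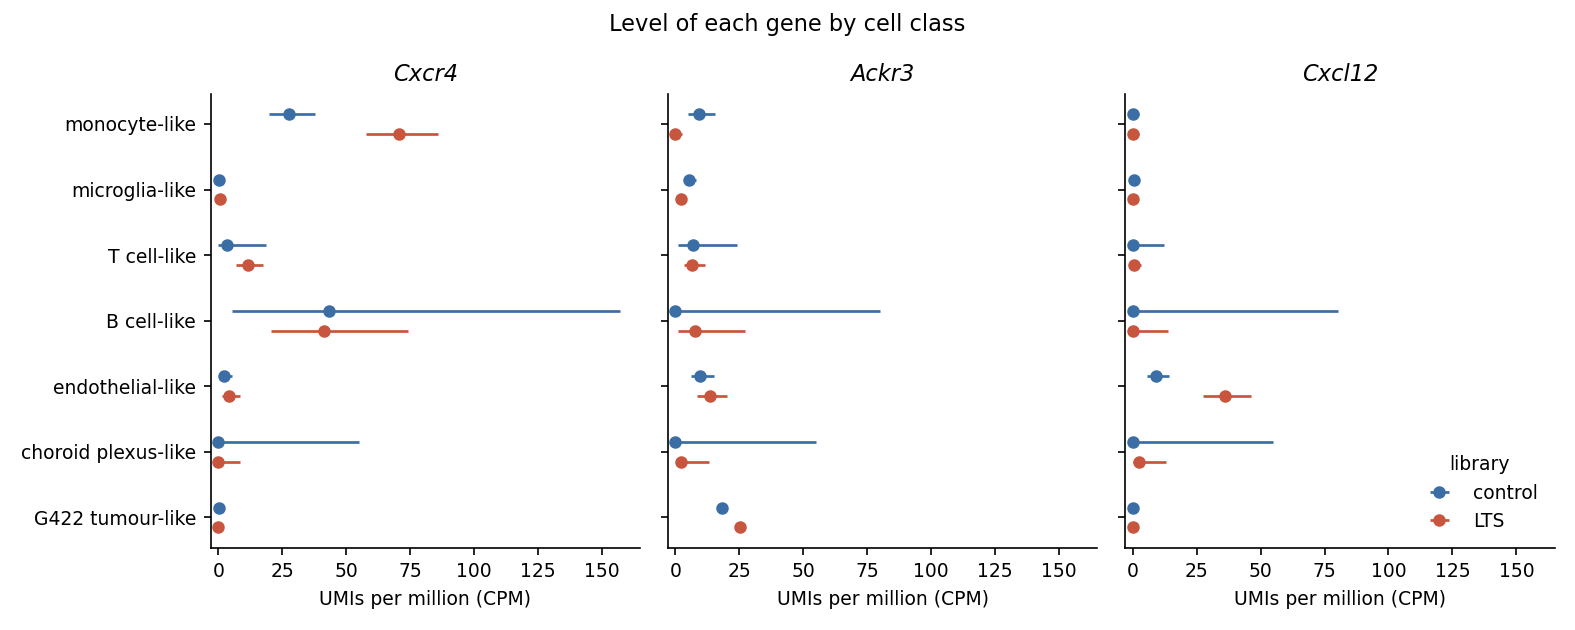
Level of Cxcr4, Ackr3 and Cxcl12 (CPM on the x axis) in each cell class (y axis) of the control and LTS libraries, with exact 95% Poisson intervals for counting error. Cxcr4 is highest in monocyte-like and B cell-like cells, Ackr3 in tumour-like and endothelial cell-like cells, and Cxcl12 in endothelial cell-like cells, with wide intervals where a class has few UMIs.

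Cxcr4, the signalling receptor, was found mainly in monocyte-like cells and was higher there in LTS. Monocyte-like cells were 5.03% of control cells and 4.67% of LTS cells, and held 50.6% and 58.5% of the Cxcr4 UMIs. In the control, 40 Cxcr4 UMIs gave 27.9 CPM (19.9 to 38.0). In LTS, 100 UMIs gave 70.8 CPM (57.6 to 86.1). The intervals do not overlap, and the LTS level was 2.54-fold the control level (1.74 to 3.76). Among 3273 genes with at least 50 CPM in either library of these cells, 0.244% were 2-fold or more higher in LTS, on log2 of CPM plus a pseudocount of 5. Since Cxcr4 was chosen with this contrast known, its place among those 8 genes is a description only.

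Before any allowance for depth, LTS had a larger share of cells with Cxcr4 and more UMIs per such cell. The UMIs per cell were not compared at equal depth. A Cxcr4 UMI was seen in 36 of 418 control cells (8.61%, exact binomial interval 6.10 to 11.7) and in 66 of 226 LTS cells (29.2%, 23.4 to 35.6). The LTS cells were deeper, with a median of 5438.5 UMIs against 3099. After each cell was thinned to 1000 UMIs, 10 control cells (2.39%, 1.15 to 4.36) and 15 LTS cells (6.64%, 3.76 to 10.7) kept one, and these intervals overlap. Tumour-like cells, read as the background, gave 0.345% and 0.388% without thinning at medians of 20203 and 40658 UMIs. In the control, 32 cells had 1 Cxcr4 UMI, 4 had 2 and 0 had 3 or more. In LTS the numbers were 43, 12 and 11 cells, with at most 3 UMIs in any cell, so no single cell set the level.

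The higher level was largest in point value in the monocyte-like cells that carried Ly6c2, a surface gene of classical inflammatory monocytes. These were 57.9% of the control class and 60.2% of the LTS class. Their Cxcr4 level was 26.1 CPM from 19 UMIs in the control and 89.3 CPM from 67 UMIs in LTS, a 3.42-fold ratio (2.03 to 6.03). Cells without a Ly6c2 UMI had 29.7 CPM from 21 UMIs and 49.8 CPM from 33 UMIs, a 1.68-fold ratio (0.943 to 3.06). The intervals of the 2 ratios overlap, and their difference was not tested. A cell without a Ly6c2 UMI can still express the gene.

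**Figure D2:**
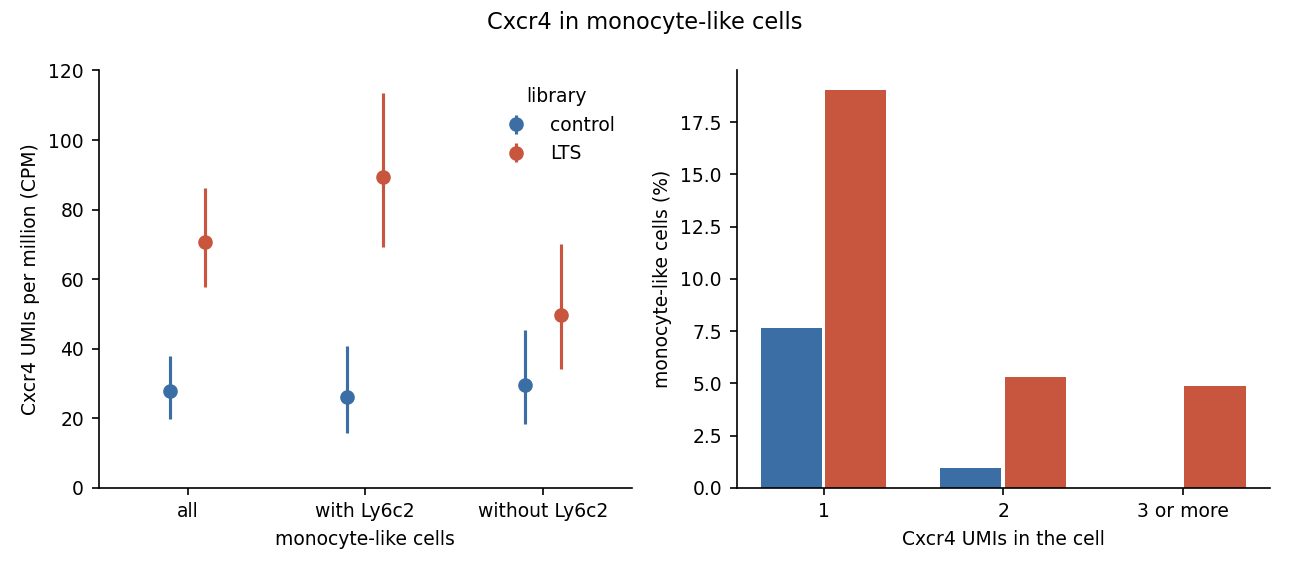
Cxcr4 in monocyte-like cells: left, CPM (y axis) in all cells and in those with and without a Ly6c2 UMI, with exact 95% Poisson intervals; right, percent of cells (y axis) with 1, 2 or 3 or more Cxcr4 UMIs, not thinned for depth. LTS lies at 70.8 CPM against 27.9 over all cells, and 0 control cells had 3 or more UMIs against 11 LTS cells.

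Depth and the estimated free RNA share differed between the libraries. In cells of 3000 to 6000 UMIs, Cxcr4 was 3.25-fold higher in LTS (1.96 to 5.50), from 25 control and 48 LTS UMIs. Below 3000 UMIs the ratio was 3.12 (0.961 to 8.98), and at 6000 or more it was 2.81 (0.902 to 14.1), both from few UMIs. With the estimated free RNA taken off both the Cxcr4 counts and the totals, the ratio over the class was 2.04. With single cells taken by their marker UMIs instead of clusters, it was 3.87, from 26 control and 94 LTS UMIs.

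In lymphocytes Cxcr4 was seen mostly in LTS, where most of these cells were. B cell-like cells had 2 UMIs in the control (43.5 CPM, 5.26 to 157) and 11 in LTS (41.4 CPM, 20.7 to 74.1), a ratio of 0.953 (0.208 to 8.85). Plasma cell markers summed there to 239 CPM in the control, with 2 of 5 seen, and to 3071 CPM in LTS, with 5 of 5. Their part in the Cxcr4 level was not tested. T cell-like cells had 1 UMI in the control (3.35 CPM) and 21 in LTS (11.5 CPM, 7.14 to 17.6), a ratio of 3.44 (0.554 to 142). Both ratios are too loose to give a direction. Of the control T cell-like cells, 61 of 96 carried as many tumour markers as T cell markers or more, against 41 of 479 in LTS. Without those cells the control had 0 Cxcr4 UMIs, so there is no ratio. With the estimated free RNA taken off the ratio was 14.9, but only 0.108 of a control UMI was left against 17.7 in LTS. Within the LTS T cell-like cells, those with Cd4 and no Cd8a or Cd8b1 UMI, the helper and regulatory side of the lineage, had 10 Cxcr4 UMIs in 7 of 96 cells (21.5 CPM, 10.3 to 39.5). Cells with Cd8a or Cd8b1, the cytotoxic side, had 7 UMIs in 5 of 269 cells (7.11 CPM, 2.86 to 14.7). The intervals overlap between 10.3 and 14.7 CPM.

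In the other named classes Cxcr4 was under the free RNA level. Microglia-like cells, the brain's own macrophages, had 1 and 3 UMIs among 761 and 630 cells (0.220 and 0.566 CPM), both at or under the floor of 3 counts, so no ratio is given. Tumour-like cells had 18 UMIs in the control (0.163 CPM, 0.0963 to 0.257) and 10 in LTS (0.0936 CPM, 0.0449 to 0.172), each in a cell of its own and far under the 5.28 and 8.43 CPM outside cells. The deepest class thus gave no Cxcr4 level above background. Endothelial cell-like cells had 5 UMIs in 5 control cells and 7 UMIs in 1 LTS cell, a ratio of 1.75 (0.479 to 7.00) that rests on that cell. In LTS the order of Cxcr4 levels was monocyte-like, B cell-like, T cell-like, endothelial cell-like, microglia-like and tumour-like. Monocyte-like and B cell-like intervals overlap there, as do those of T cell-like and endothelial cell-like cells and, in CPM, those of the last pair. Endothelial cell-like (1.635 to 8.38 CPM) and microglia-like intervals (0.117 to 1.653) also overlap, narrowly.

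Ackr3, the scavenging receptor, was highest in tumour-like cells among the named classes and was higher in them in LTS. They held 94.4% of its UMIs in the control and 95.0% in LTS, at 62.8% and 53.3% of the cells. These deep cells also held most UMIs of any gene: 110761392 of 125688128 in the control and 106865729 of 122981813 in LTS. Over all cells Ackr3 stood at 16.9 and 23.2 CPM, and outside cells at 13.9 and 20.8. The unnamed cluster 23 had 46.3 and 20.2 CPM, from 5 and 3 UMIs. In the control, 2010 Ackr3 UMIs gave 18.1 CPM (17.4 to 19.0), and in LTS 2710 UMIs gave 25.4 CPM (24.4 to 26.3). The LTS level was 1.40-fold the control level (1.32 to 1.48), short of 2-fold. In the same cells 0.0156% of 6418 genes with at least 20 CPM were 2-fold or more higher, the median gene differed by -0.01 on the log2 scale, and 12 genes, Ackr3 included, had a ratio as high as its own. With 1 library a group, this interval says nothing of how much such a level varies from mouse to mouse.

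An Ackr3 UMI was seen in 27.7% of control tumour-like cells (26.5 to 28.9) and 49.6% of LTS ones (47.7 to 51.6), but the latter had medians of 40658 against 20203 UMIs. Thinned to 1000 UMIs, the shares were 1.80% (1.46 to 2.20) and 2.25% (1.71 to 2.90), which overlap. Cells with 5 or more Ackr3 UMIs numbered 14 in the control (0.268%) and 103 in LTS (4.0%), up to 9 and 12 UMIs. At matched depth the ratio was 1.53 (1.15 to 2.01) in cells of 10000 to 20000 UMIs, 1.19 (1.08 to 1.31) at 20000 to 40000, and 1.40 (1.20 to 1.64) at 40000 to 80000. Below 10000 it was 1.35 (0.737 to 2.37). Above 80000 only 1 control cell remained, and its 4 UMIs turned the ratio to 0.661 (0.255 to 2.45). The band that held the most Ackr3 UMIs in the control, 20000 to 40000, thus had a smaller ratio than the class as a whole.

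**Figure D3:**
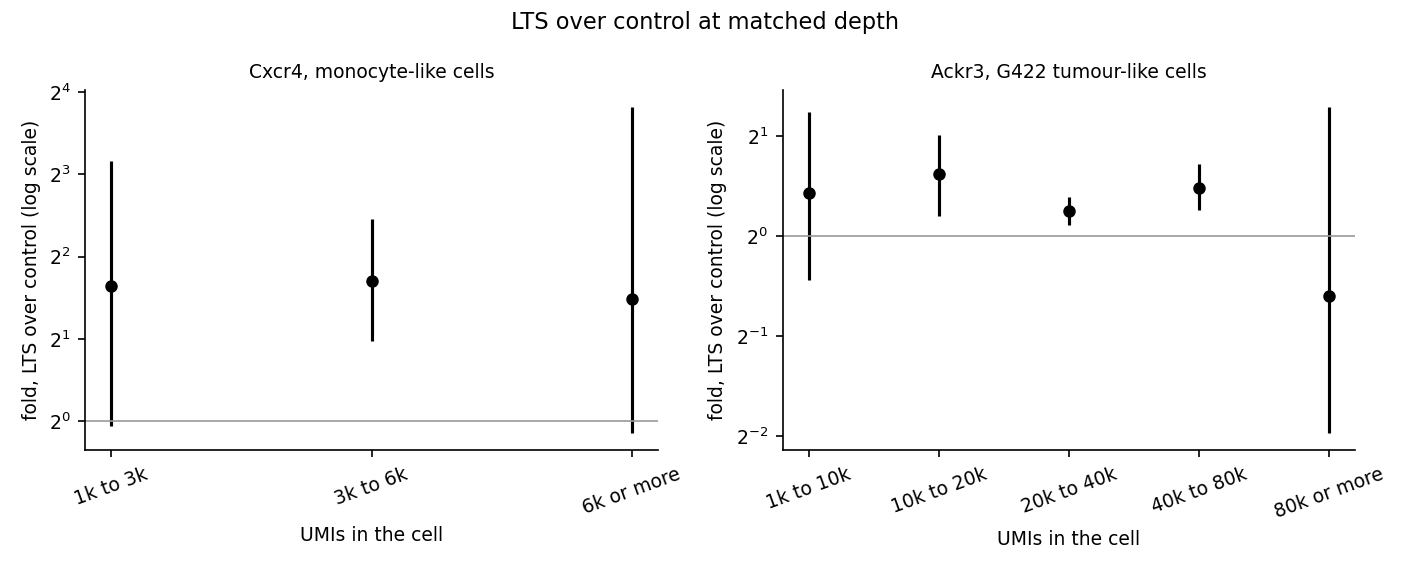
Fold of LTS over control (y axis, log scale) for Cxcr4 in monocyte-like cells and Ackr3 in tumour-like cells, by the number of UMIs in the cell (x axis), with exact 95% intervals for counting error; the grey line is at 1. Cxcr4 is at 3.25 in the middle band, and Ackr3 lies between 1.19 and 1.53 in the 4 bands below 80000 UMIs.

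The 10 tumour-like clusters differed in Ackr3, and each was higher in LTS. The ratio ran from 1.27 to 1.68 with a median of 1.40, and 9 of the 10 intervals lay above 1. Clusters of 1 library share its depth and free RNA, so the 10 are not replicates. The highest level was in cluster 13 (30.3 CPM in the control, 38.7 in LTS), led by Il11, a cytokine of the interleukin 6 family, Areg and Hbegf, ligands of the epidermal growth factor receptor, and Hmox1 and Ndrg1, stress-induced genes. Next came cluster 6 (21.2 and 35.6 CPM), led by Il11, Areg and the bone morphogenetic protein antagonist Grem1. The lowest was cluster 3 (13.03 and 18.5 CPM), led by the matrix genes Aspn, Postn, Mgp and Col1a1. Cluster 3 also met 4 fibroblast markers, against 7 tumour markers, and was named tumour-like by the rule. The order was much the same in both libraries (Pearson r 0.923 and Spearman rho 0.939 over 10 clusters, given as a description).

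Across those clusters Ackr3 was set beside hypoxia-induced genes and the leading genes of clusters 13 and 6. The summed level of 7 such genes, of which Vegfa, the vessel growth factor, is the most abundant, went from 161 CPM in cluster 3 to 344 CPM in cluster 13 in the control, and from 169 CPM in cluster 5 to 461 CPM in cluster 13 in LTS. Its Pearson r with Ackr3 over the 10 clusters was 0.920 in the control and 0.954 in LTS (Spearman rho 0.818 and 0.903). Slc2a1, the main glucose transporter, gave 0.899 and 0.932, whereas Bnip3, a mitochondrial clearance gene of the same list, gave -0.21 and 0.42, and Egln3, an oxygen-sensing hydroxylase, 0.22 and 0.40. By Pearson r, genes outside the list ran nearly as closely: Areg gave 0.897 and 0.920, and Il11 0.828 and 0.901. These genes were taken because they lead clusters 13 and 6, the highest in Ackr3. Their high r was favoured by that choice and is no independent comparison. By rank they ran less closely, with Spearman rho of 0.527 and 0.600 for Areg and 0.479 and 0.370 for Il11. The points share depth and library. Over all tumour-like cells, Vegfa was 1.19-fold in LTS (1.16 to 1.23) and Slc2a1 1.05-fold (1.01 to 1.09), both less than Ackr3 at 1.40-fold. By cluster this differed. In cluster 13 the summed level went from 344 to 461 CPM and Vegfa from 125 to 188, beside Ackr3 from 30.3 to 38.7. In cluster 6 the summed level went from 295 to 338 CPM, beside Ackr3 from 21.2 to 35.6.

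**Figure D4:**
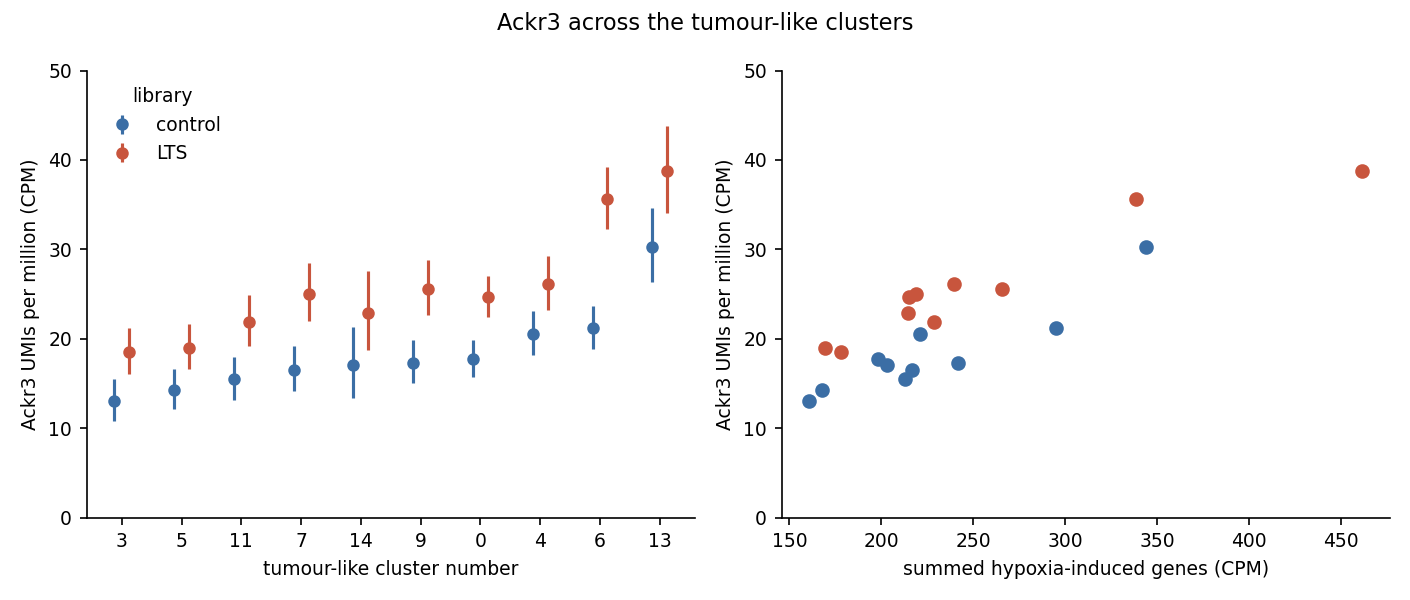
Ackr3 in the 10 tumour-like clusters: left, CPM (y axis) by cluster number in order of the control level, with exact 95% Poisson intervals; right, the same levels against the summed CPM of 7 hypoxia-induced genes (x axis), 1 point a cluster and library. LTS lies above the control in each cluster, and cluster 13 is highest at 30.3 and 38.7 CPM.

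In vessels Ackr3 did not separate the libraries. Endothelial cell-like cells had 21 UMIs in 16 of 144 control cells (9.74 CPM, 6.03 to 14.9) and 23 in 14 of 74 LTS cells (13.4 CPM, 8.47 to 20.05), a ratio of 1.37 (0.726 to 2.61). Both levels lie under the 13.9 and 20.8 CPM outside cells. At the estimated free RNA shares of 28.6% and 12.98% of the class's UMIs, free RNA would leave 12.4 of the control UMIs and 18.3 of the LTS ones. Monocyte-like cells had 13 UMIs in the control (9.06 CPM, 4.82 to 15.5), under the 13.9 CPM outside cells, and 0 in LTS (0 to 2.61). The control point value was 4.26-fold the LTS floor of 3 counts (2.12 CPM), with counting error in the control left out. The tumour markers were lower in LTS too (923 against 250 CPM).

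Cxcl12, the ligand, was rare, and most of it came from few endothelial cell-like cells. In all, 28 UMIs lay in 16 of 8310 control cells and 82 UMIs in 15 of 4835 LTS cells. Endothelial cell-like cells held 71.4% of the UMIs in the control (51.3 to 86.8) and 75.6% in LTS (64.9 to 84.4), at 1.73% and 1.53% of the cells. Their level was 9.28 CPM (5.67 to 14.3) from 20 UMIs in the control and 36.01 CPM (27.6 to 46.2) from 62 in LTS, a 3.88-fold ratio (2.31 to 6.79). Of 6832 genes with at least 20 CPM in these cells, 0.22% were 2-fold or more higher in LTS.

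The same number of cells carried the gene in each library, out of fewer endothelial cell-like cells in LTS. The UMIs lay in 8 of 144 control cells (5.56%, 2.43 to 10.7) and 8 of 74 LTS cells (10.8%, 4.78 to 20.2). In the control these cells had 8, 3, 3, 2, 1, 1, 1 and 1 Cxcl12 UMIs. In LTS they had 39, 12, 4, 3, 1, 1, 1 and 1, so 1 cell held 62.9% of the class's UMIs. Without the top cell of each library the ratio was 2.41, from 12 and 23 UMIs, and with each cell weighing the same it was 2.54. Thinned to 1000 UMIs, 2 control cells and 1 LTS cell kept a UMI, so the share could not be compared at this depth. The LTS cell with 39 UMIs had all 12 endothelial markers, 0 of 8 fibroblast markers and 0 of 10 mural markers among its 34422 UMIs. Others were less clear. The LTS cell with 12 UMIs had all 12 endothelial markers, but also 3 fibroblast, 1 mural and 11 of 13 tumour markers. A control cell with 3 UMIs had 4 endothelial and 5 tumour markers. The remaining ones had 8 to 12 endothelial markers.

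**Figure D5:**
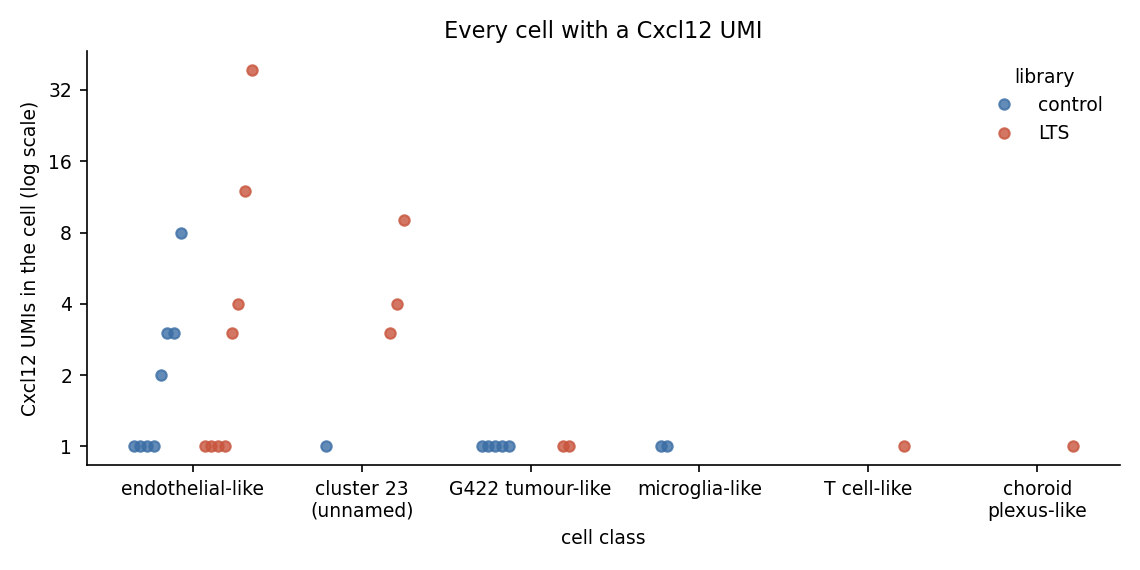
Each point is 1 cell with a Cxcl12 UMI, by cell class (x axis) and number of Cxcl12 UMIs (y axis, log scale), in the control and LTS libraries. One LTS endothelial cell-like cell has 39 UMIs, 3 LTS cells of the unnamed cluster 23 have 9, 4 and 3, and the tumour-like cells have 1 each.

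The endothelial cell-like cells with Cxcl12 were compared by vessel lists. The 6 arterial genes summed to 183 CPM in the 16 cells with a Cxcl12 UMI of both libraries and to 33.6 CPM in the 202 without. This held within the control (134 against 35.6 CPM) and within LTS (222 against 30.9), with Gkn3 at 0 in the cells with Cxcl12 of both libraries and Vegfc at 0 in those of the control. The sum of the 5 capillary genes was also higher with Cxcl12, at 476 against 356 CPM in the control and 546 against 469 in LTS. Not every gene followed the sum. Mfsd2a, Rgcc and Car4 were higher with Cxcl12 in both libraries, and Tfrc was higher in the control but lower in LTS. Slc16a1 was lower in both, at 126 against 159 CPM in the control and 192 against 194 in LTS. Rgcc weighed most in the control sum, at 231 against 118 CPM. The sum of the 6 tip and sprouting genes went opposite ways: 1868 against 586 CPM in the control and 132 against 1182 in LTS. The venous sum also went opposite ways, at 469 against 800 CPM in the control and 1241 against 942 in LTS. Single genes weighed heavily in the LTS sum: Vcam1 stood at 426 against 56.0 CPM and Ackr1 at 18.0 against 170. In the control Vcam1 was at 14.9 against 57.4 CPM. Each group with Cxcl12 is 8 cells, and cells of 1 library are not replicates. A UMI of Ackr3 was also present in 3 of the 8 Cxcl12 cells of each library, and a UMI of Cxcr4 in 0.

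Outside vessels, the other LTS source was a small unnamed cluster. Cluster 23, with 12 control and 15 LTS cells, stayed unnamed because markers of more than 1 class were among its leading genes, fibroblast genes such as Col1a2 included. Its LTS cells had 16 Cxcl12 UMIs (108 CPM, 61.7 to 175) in 3 cells, with 9, 4 and 3 UMIs and 7, 8 and 7 of 8 fibroblast markers. Its control cells had 1 UMI. Tumour-like cells had 5 Cxcl12 UMIs among 5220 control cells (0.0451 CPM) and 2 among 2575 LTS cells (0.0187 CPM), a ratio of 0.415 (0.0395 to 2.53). Those levels are under the 0.960 and 2.66 CPM outside cells and are read as background. Monocyte-like cells had 0 in both libraries, where the floor of 3 counts stands at 2.09 and 2.12 CPM.

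Other genes of the axis were taken from 7 lists with 56 genes found in the files, of which those with at least 20 CPM in either library of a class were measured. Counts of genes past 2-fold are on log2(CPM + 5), while the ratio given for a single gene is of plain CPM. In monocyte-like cells 0 of 37 were 2-fold or more apart, where 2.35% of all genes were. Gpc1, a proteoglycan at 27.9 and 12.04 CPM, had a plain ratio of 0.432 (0.230 to 0.779) and is named because it falls past 2-fold on that scale. The G protein and migration machinery that Cxcr4 signals through was higher in LTS in 9 of 10 genes, with a median of 0.23 on the log2 scale against -0.05 over all genes. Beside it, the estimated free RNA share of these cells was 32.3% in the control and 11.4% in LTS, and the 12 monocyte markers summed to 12969 and 17524 CPM. The part of free RNA in this list and the next was not tested. Of these, Pik3cg, the catalytic subunit of a leukocyte phosphoinositide 3-kinase, went from 34.8 to 60.2 CPM, a ratio of 1.73 (1.20 to 2.5). Its regulatory partner Pik3r5 went from 27.2 to 43.9 CPM, a ratio of 1.62 (1.07 to 2.48). Gnai3, an inhibitory G protein subunit, had a ratio of 0.841 (0.562 to 1.25). The G protein and migration list was not higher in monocyte-like cells alone. It was higher in LTS in 8 of 10 measured genes in microglia-like cells and 5 of 5 in endothelial cell-like cells, and in 1 of 3 in tumour-like cells.

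The genes that turn Cxcr4 off were higher in LTS in 7 of 9 cases in the same cells, with a median of 0.15 against -0.05 over all genes, beside tumour markers at 923 and 250 CPM. Arrb2, an arrestin that uncouples the receptor, went from 170 to 213 CPM (1.25-fold, 1.06 to 1.49), and Rgs1, which shortens G protein signals, from 693 to 828 CPM (1.20-fold, 1.10 to 1.3). Mif, another ligand of Cxcr4, went the other way, from 777 to 474 CPM (0.611-fold, 0.554 to 0.673). Its receptor Cd74, also the invariant chain of class II antigen presentation, went from 6458 to 8692 CPM (1.35-fold, 1.31 to 1.38). Mif stood at 1389 and 1352 CPM in tumour-like cells, and the part of free RNA in the monocyte-like value was not tested.

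In endothelial cell-like cells 0 of 39 listed genes were 2-fold or more apart, against 0.732% of all genes. The transcriptional regulators of the axis were higher in LTS in 8 of 9 genes, with a median of 0.15 against -0.02 over all genes. Beside it, the estimated free RNA share of these cells was 28.6% in the control and 12.98% in LTS, the 12 endothelial markers summed to 5155 and 6823 CPM, and the 10 mural markers to 36.2 and 124 CPM, and their part was not tested. Foxc1, a forkhead factor known to drive Cxcl12 in marrow stroma, went from 56.1 to 73.8 CPM (1.31-fold, 1.02 to 1.70), and Nrf1, a factor known to drive Cxcr4, went from 30.2 to 16.3 CPM (0.539-fold, 0.333 to 0.852). Rgs16, a brake on G protein signals, went from 22.3 to 36.6 CPM (1.64-fold, 1.11 to 2.45). Hspg2, the basement membrane proteoglycan perlecan, went from 174 to 214 CPM (1.23-fold, 1.06 to 1.42), the only 1 of 5 measured proteoglycans that was higher.

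In tumour-like cells 0 of 30 listed genes were 2-fold or more apart, against 0.187% of all genes, and every list's median lay between -0.12 and 0.06 on the log2 scale. Hif1a, the oxygen-sensing factor, stood at 212 CPM in both libraries (1.00-fold, 0.984 to 1.02). Sdc4, a syndecan that can hold the chemokine at the cell surface, went from 105 to 115 CPM (1.09-fold, 1.07 to 1.12), and Mmp14, a membrane protease that can cleave it, from 181 to 166 CPM (0.918-fold, 0.899 to 0.937). Ackr3 at 1.40-fold was further apart than each of these 30 genes. In microglia-like cells 2 of 34 were 2-fold or more higher (Cd74 and Rgs2), where 0.592% of genes were 2-fold or more apart. In T cell-like cells 7 of 38 were past 2-fold, where 13.1% of all genes were.

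The genes most like each member were found by Pearson r of log2(CPM + 5) over 14 sums, 7 classes in 2 libraries, among 6262 genes. Nearest Cxcr4 were Cyp4f18 (r 0.9503), a lipid hydroxylase of myeloid cells, Napsa (0.9502), an aspartic protease, Plbd1 (0.931), Ciita (0.927), the master activator of class II antigen presentation, and Acp5 (0.920), an acid phosphatase of macrophages. Nearest Ackr3 were Mybl2 (0.919), a cell cycle factor, and the RNA-processing genes Papola (0.915), Hnrnpd (0.909) and Exosc10 (0.885), then Rbmxl1 (0.881). Nearest Cxcl12 were Gpr4 (0.968), an acid-sensing receptor of endothelium, Lpar4 (0.968), a lysophosphatidic acid receptor, Ubd (0.962), a ubiquitin-like modifier, Nox4 (0.960), an oxidase, and Sox17 (0.957), an arterial endothelial factor. Such values mostly rank genes by the class they mark. Between members r was -0.34 for Cxcr4 and Ackr3, -0.18 for Cxcr4 and Cxcl12, and 0.29 for Ackr3 and Cxcl12.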

How the data were processed

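The deposited values are raw UMI counts for each gene and barcode. Cell Ranger 4 produced them, as the file headers record, and the submitters' processing notes name mm10 as the build. The kit was the 3' version 3 single-cell chemistry, per the labels' protocols. Both matrices list 6794880 barcodes, so cells were called here: at least 1000 UMIs, at least 300 genes and at most 15% mitochondrial UMIs. Of 9127 control and 5440 LTS barcodes with enough UMIs, 0 and 1 failed on genes and 817 and 604 on mitochondrial share. Cells of both libraries were clustered together (scanpy 1.11.5, 2000 variable genes, 30 components, 15 neighbours, Leiden resolution 1). Clusters were named from marker lists, at least 3 markers each at 2-fold or more the other cells. The naming rule was tightened after the clusters were seen. Clusters with 1635 control and 709 LTS cells stayed unnamed. The doublet caller Scrublet marked 1 control cell (0.0120%), where it did not work, and 85 LTS cells (1.76%), so no cells were removed as doublets.

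Counts were summed per class and library. Levels are CPM (counts per 1000000 UMIs) of the class sum with exact Poisson intervals, shares have exact Clopper-Pearson intervals, and ratios have exact conditional intervals, all at 95% and for counting error only. Over all genes, ratios were of CPM plus 5. With 1 library a group no p-value is given. The ratio step was tested on simulated data. The estimated free RNA share set the summed tumour markers of a class (for tumour-like and endothelial cell-like cells, microglia markers) against their level in barcodes of 1 to 100 UMIs. Gene identifiers were matched to GENCODE M21, also on mm10, for positions.

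The members and lists were chosen with earlier results of these data known. Named genes were the 3 members, genes of the 7 fixed lists with at least 20 CPM, and the 5 genes most like each member. Alternatives were other filters, clustering, gating, weighting, scaling, free RNA, doublets and leaving out top cells; matched depth and the barcodes found in both libraries were added after seeing the data.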

Additional observations from a re-analysis of the deposited data

Results flagged for a closer look

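Ackr3 went opposite ways in tumour-like and microglia-like cells. The ratio of LTS to control was 1.4 in tumour-like cells and 0.428 in microglia-like cells (0.195 to 0.891), from 24 control and 12 LTS UMIs. The difference between the cell classes was not tested, and each library is 1 sample. Beside it, the 13 tumour markers summed to 737 CPM in control microglia-like cells and 286 CPM in LTS ones, and their part in the ratio was not tested. Both microglia-like levels, 5.28 and 2.26 CPM, are under the Ackr3 level outside cells.

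Cxcr4 was also present in cells of no named class. The unnamed cluster 22, led by Ccr7, a lymph node homing receptor, and Ccl22, a chemokine of mature dendritic cells, had 52.7 CPM in LTS (21.2 to 109), from 7 UMIs in 4 of 19 cells. Its control cells had 1 UMI in 18 cells (12.2 CPM). The same LTS cells had 7 Ackr3 UMIs, all in 1 cell.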

How the results depend on the processing

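Across 11 or 12 alternatives each, Cxcr4 in monocyte-like cells ran from 2.04 to 3.87-fold in LTS, Ackr3 in tumour-like cells from 1.19 to 1.52, and Cxcl12 in endothelial cell-like cells from 2.41 to 4.39, with 0 reversals. Those outside the main interval were 3.87 for Cxcr4 with single cells gated on marker UMIs, and for Ackr3 1.52 with barcodes of 500 or more UMIs and 1.19 in cells of 20000 to 40000 UMIs, the last chosen after seeing the data; the cause was not tested. Ratios whose interval held 1 stayed within it: Cxcr4 0.509 to 2.83 in B cell-like, 2.66 to 14.9 in T cell-like, 0.557 to 3.01 in endothelial cell-like and 0.375 to 1.18 in tumour-like cells, Ackr3 1.15 to 1.59 in endothelial cell-like cells, and Cxcl12 0.233 to 1.37 in tumour-like cells. The 14.9 rests on 0.108 of a control UMI.

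Without thinning, shares of cells with a UMI were, control then LTS, 8.61% and 29.2% for Cxcr4 in monocyte-like cells, 5.56% and 10.8% for Cxcl12 and 11.1% and 18.9% for Ackr3 in endothelial cell-like cells, and 3.34% for Cxcr4 in LTS T cell-like cells; thinned to 1000 UMIs, Cxcl12 stood at 1.39% and 1.35%, Ackr3 at 0.694% and 1.35%, and the T cell-like share at 1.25%. Genes past 2-fold at 50 CPM numbered 55 in monocyte-like, 23 in endothelial cell-like and 7 in tumour-like cells. They numbered 148, 50 and 12 at 20 CPM, 268, 101 and 13 with no minimum, and 330, 131 and 14 at 1.5-fold.

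There is no value where a library was left at 0 or no cluster carried the name: all mural cell and fibroblast ratios, Cxcr4 in B cell-like cells at 500 UMIs, in T cell-like cells at 500 UMIs, gated, without mixed cells or without the top cell, in endothelial cell-like cells without the top cell, and in tumour-like cells, with Cxcl12, after free RNA. Cxcr4 in microglia-like cells was under the floor. No paired analysis was possible because each group is 1 library. Few UMIs limit Cxcl12, lymphocyte and endothelial Cxcr4, and Ackr3 in immune cells.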

Other observations

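Stromal cells other than endothelium were scarce. Taking each cell by the marker list with most markers detected gave 7 fibroblast-like cells in the control and 10 in LTS, with 1 and 16 Cxcl12 UMIs and 0 of Cxcr4 and Ackr3. Mural cells by the same gate numbered 1 and 2, with 0 Cxcl12 UMIs. In endothelial cell-like cells the mural list, genes of pericytes and smooth muscle, summed to 36.2 CPM in the control and 124 CPM in LTS, with UMIs of 7 and 8 of 10 markers, and its part in the Cxcl12 ratio was not tested.

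Cluster 15, unnamed because it carried more tumour markers than microglia markers, had 42 Ackr3 UMIs in 214 control cells (11.2 CPM, 8.08 to 15.2) and 72 in 89 LTS cells (22.4 CPM, 17.5 to 28.2), with up to 11 in 1 LTS cell. It had 10 Cxcr4 UMIs in each library and 0 of Cxcl12.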
